A study of Mus musculus with 18 samples.

Results

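The Ikaros family genes Ikzf1 to Ikzf5 were examined in total RNA of mouse CD4+ T cells. They were chosen by name as the genes of this family, and they make up 5 of the 23219 genes in the total RNA table. Ikzf1 encodes Ikaros, Ikzf2 Helios, Ikzf3 Aiolos, Ikzf4 Eos and Ikzf5 Pegasus.

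The cells were CD4 positive T cells from lymph nodes and spleen of the C57BL6 strain. In all groups, the naive group included, the labels give an injection of chimeric antibodies that carry antigen to dendritic cells, 5 days before collection. The 9 total RNA libraries fall into 3 groups of 3, namely naive cells and antigen-specific cells activated by dendritic cells, the latter separated into Hopx-low and Hopx-high. The labels do not name the antigen or the T cell receptor, do not say how Hopx was read in living cells, and leave unsaid whether separate or pooled animals gave the libraries. The p-values therefore measure a spread between libraries that may be technical. Hopx encodes a small homeodomain protein, and its level was 0.971 ± 0.894, 6.995 ± 0.948 and 27.8 ± 5.77 in naive, Hopx-low and Hopx-high cells, which follows the labels.

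Ikaros family proteins are zinc finger transcription factors of lymphocytes. Fingers near the start of the protein bind DNA at sequences with a GGGAA core, and fingers at the end join family members into pairs, so that their relative amounts can matter. Ikaros and Aiolos are best known in lymphocyte development and in the control of cytokine genes, Helios and Eos are known from regulatory T cells, where Eos works with Foxp3, and Pegasus is the most distant relative and binds a different DNA sequence. Family members recruit the NuRD chromatin remodelling complex and other corepressors.

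Levels are covered bases per megabase covered in the library, written as mean ± SD with n = 3 libraries per group. Libraries held 105 to 329 megabases. Values above 0 and of at most 200 bases had a median of 108 to 115 bases. The cut at 200 bases partly sets that median, so it gives only a rough size of a read. If a read covers about as many bases, 1 read was worth a level of about 0.340 to 1.06. Each fold change is a difference of log2(level + 1), given with its standard error, and understates the change of low genes. Adjusted p comes from limma over 11320 tested features, and below 0.05 a gene is called risen or fallen. Hopx-low replicate 1 and Hopx-high replicate 3 were the shallowest libraries, at 105 and 110 megabases (109.7 for the latter), against 206 to 329 in the others. In them 18.0% and 18.9% of bases fell on Lars2, which encodes the leucyl-tRNA synthetase of mitochondria, against 0.525% to 6.55% elsewhere. The levels of different genes are not compared, because the counted length of each gene is not given. In bulk RNA, fewer cells that express a gene and less RNA per cell cannot be told apart.

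Helios and Eos were far higher in both activated groups than in naive cells, Pegasus was lower, Aiolos was moderately higher in Hopx-low cells, and Ikaros did not pass the test in any comparison. The Aiolos call held under only 9 of 22 alternative settings. In Hopx-high cells the mean of Aiolos was also above naive without a call, and the activated groups did not differ by the test. In Hopx-low against naive cells 3 of 5 genes rose (Ikzf2, Ikzf3 and Ikzf4) and 1 fell (Ikzf5), where 8.39% of all tested features were called (4.75% rose and 3.64% fell). In Hopx-high against naive cells 2 rose (Ikzf2 and Ikzf4) and 1 fell (Ikzf5), where 23.6% of tested features were called (8.41% rose and 15.1% fell). Both comparisons use the same naive libraries. Between Hopx-high and Hopx-low cells limma called 0 of the 5 genes, with 1 (Ikzf2) at an unadjusted p below 0.05, and it called 2.14% of tested features (1.22% higher and 0.919% lower).

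By the ranges of their libraries, 4 of the 5 genes did not overlap between Hopx-low and naive cells, against 29.2% of tested features (10.9% higher, 18.2% lower). Between Hopx-high and naive cells 3 did not overlap, against 39.1% (13.2% higher, 26.0% lower). Between the activated groups 1 did not overlap, against 16.7% (6.52% higher, 10.2% lower). All 5 genes passed the filter on low values, but Ikzf2 passed through the activated groups alone, so a count that includes it describes the family and supports nothing further.

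**Figure D1:**
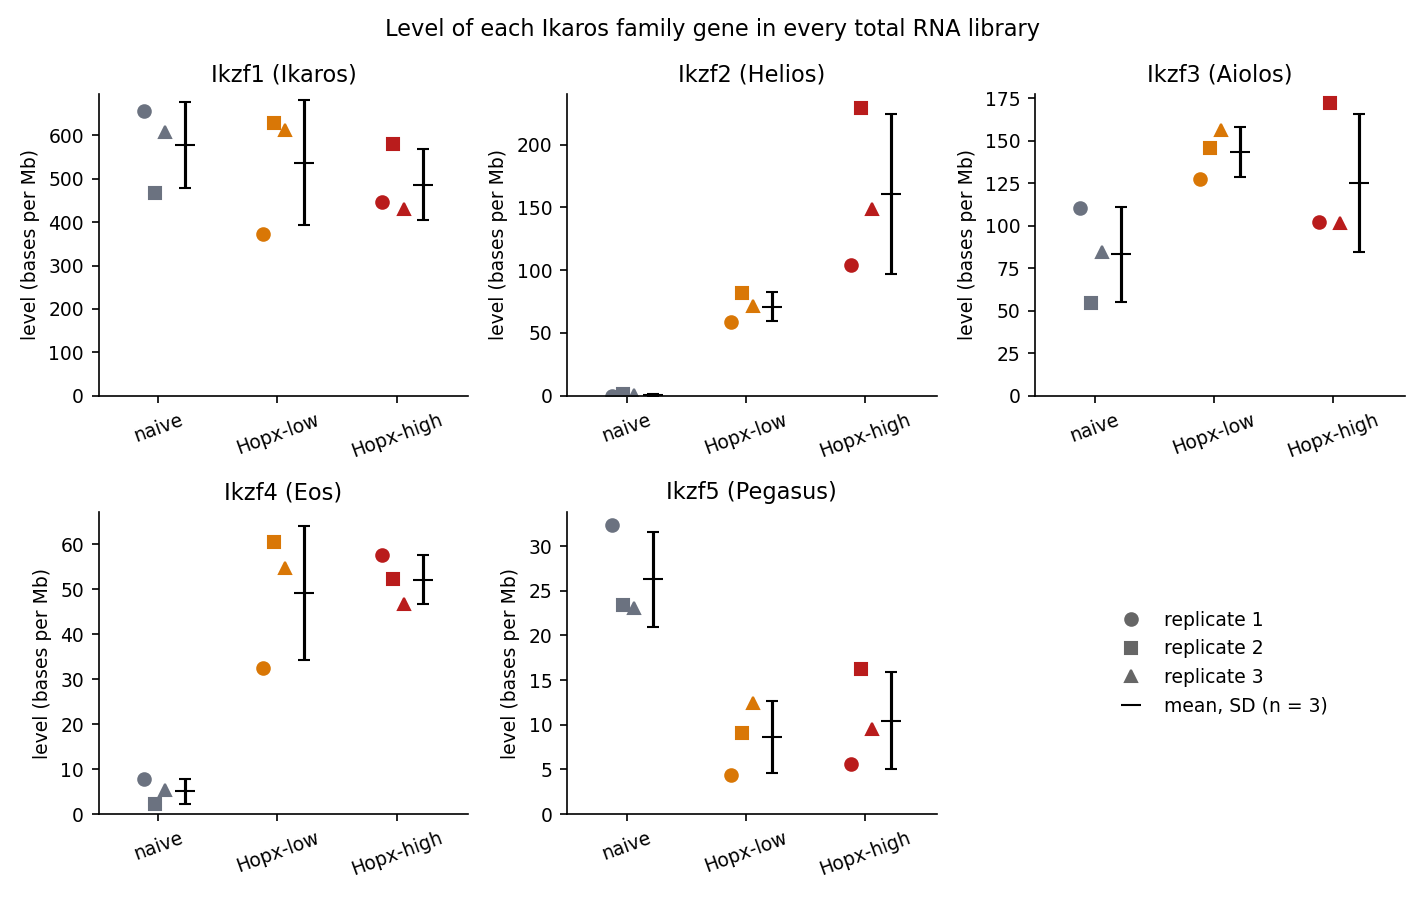
Level of each Ikaros family gene (vertical axis, bases per megabase, from 0) in each of the 9 total RNA libraries by group; symbols are replicates, and bars are the mean and SD of 3 libraries. Ikzf2 lies between 0 and 1.27 in naive libraries and between 58.8 and 229 in the others, whereas the ranges of Ikzf1 overlap.

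Ikzf2, which encodes Helios, lies on chromosome 1 from 69531207 to 69687351 in the GRCm38.p6 assembly, which also gives the positions of the other genes. Its level in naive replicates 1, 2 and 3 was 0, 1.27 and 0.496, which are 0, 281 and 151 covered bases. In Hopx-low replicates it was 58.8, 82.1 and 71.6, and in Hopx-high replicates 104, 229 and 149. Every activated library was above every naive library, and every Hopx-high library was above every Hopx-low library. The naive level rests on at most 281 covered bases in a library, so the size of the rise from it is uncertain while the levels of the activated groups are not low.

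The log2 fold change of Ikzf2 was 5.57 ± 0.34 in Hopx-low against naive cells (adjusted p = 8.0e-11) and 6.68 ± 0.34 in Hopx-high against naive cells (adjusted p = 9.1e-13). These calls held under all 22 alternatives, with values from 3.76 to 8.66 and from 4.83 to 9.78. The lowest values came from a pseudocount of 5 and the highest from the deposited scale. Group means were 0.588 ± 0.639, 70.8 ± 11.6 and 161 ± 63.5.

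Ikzf2 was the family gene with a gap between the activated groups. The mean level in Hopx-high cells was 2.27 times that in Hopx-low cells, and the log2 fold change was 1.11 ± 0.34, with a 95% interval of 0.40 to 1.82. The unadjusted p was 0.00383 and limma's adjusted p was 0.11, so the difference did not pass. The groups did not overlap, which was true of 6.52% of tested features in the higher direction. With upper-quartile scaling the adjusted p was 0.029, with quantile normalization 0.030, with a pseudocount of 5 it was 0.025, and with only the 6 libraries compared it was 0.013. Over all alternatives it ranged from 0.013 to 0.86, so whether this step was called depended on the processing.

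Ikzf4 encodes Eos, which acts as a corepressor partner of Foxp3, and lies on chromosome 10 from 128630839 to 128669671. Its level in naive replicates was 7.77, 2.23 and 5.32. In Hopx-low replicates it was 32.4, 60.6 and 54.7, and in Hopx-high replicates 57.6, 52.2 and 46.6. Every activated library was above every naive library, while the activated groups overlapped. The means were 5.11 ± 2.77, 49.2 ± 14.9 and 52.1 ± 5.46. The log2 fold change was 3.11 ± 0.35 in Hopx-low cells (adjusted p = 1.3e-06) and 3.23 ± 0.35 in Hopx-high cells (adjusted p = 3.3e-07), both against naive, and both calls held under all 22 alternatives. Hopx-high against Hopx-low gave 0.12 ± 0.35, with a 95% interval of -0.60 to 0.85 (adjusted p = 0.93).

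**Figure D2:**
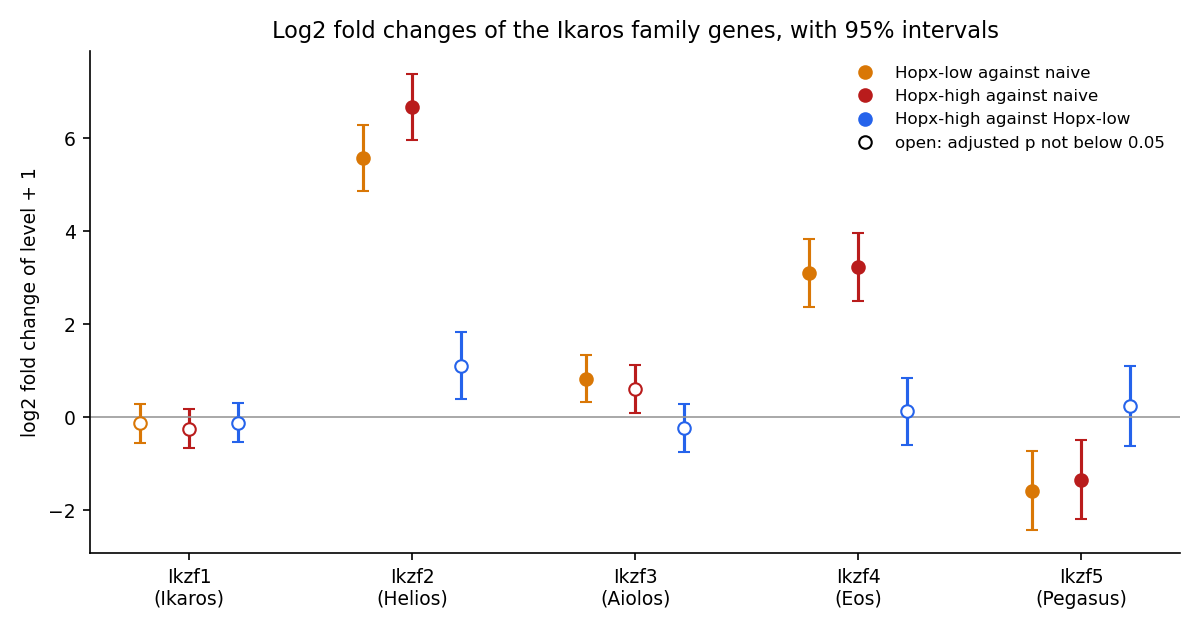
Log2 fold change of level + 1 (vertical axis) of each family gene in the 3 comparisons, with 95% intervals from limma; filled points have an adjusted p below 0.05. Ikzf2 and Ikzf4 lie far above 0 against naive cells, at 5.57 and 3.11 in Hopx-low cells, Ikzf5 lies below 0 at -1.58, and no point is filled for Hopx-high against Hopx-low.

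Ikzf3 encodes Aiolos, which is known from B cells and effector T cells, and lies on chromosome 11 from 98464610 to 98546031. Its level in naive replicates was 110.2, 54.4 and 84.5. It was 127, 146 and 156 in Hopx-low replicates and 102, 172 and 101.4 in Hopx-high replicates. Hopx-low libraries were all above naive ones, whereas Hopx-high libraries 1 and 3 lay below naive replicate 1. The log2 fold change against naive was 0.83 ± 0.25 in Hopx-low cells (adjusted p = 0.039) and 0.60 ± 0.25 in Hopx-high cells (adjusted p = 0.084, not called, 95% interval 0.08 to 1.11).

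The call of Ikzf3 in Hopx-low cells held under 9 of 22 alternatives, with adjusted p from 0.0064 to 0.22. It was lost without naive replicate 2 or 3, any of the Hopx-low replicates or Hopx-high replicate 3, and the log2 fold change was 0.56 without naive replicate 2. In Hopx-high cells the gene was called with upper-quartile scaling (adjusted p = 0.0077), quantile normalization (0.012), totals without Lars2 (0.033) and without naive replicate 1 (0.032). Hopx-high against Hopx-low gave -0.23 ± 0.25, with a 95% interval of -0.75 to 0.28.

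Ikzf1 encodes Ikaros, the founding member of the family, and lies on chromosome 11 from 11684962 to 11772930. Its level in naive replicates was 658, 468 and 608. It was 372, 629 and 612 in Hopx-low replicates and 446, 581 and 431 in Hopx-high replicates. The ranges of all 3 groups overlapped, and the group means were 578 ± 98.5, 538 ± 144 and 486 ± 82.3. The log2 fold change was -0.13 ± 0.20 in Hopx-low against naive (95% interval -0.55 to 0.29, adjusted p = 0.75). It was -0.25 ± 0.20 in Hopx-high against naive (-0.66 to 0.17, adjusted p = 0.38) and -0.12 ± 0.20 between the activated groups (-0.54 to 0.30, adjusted p = 0.87). These intervals leave room for a modest fall or rise, so they do not show that the gene was unaltered. None of the 22 alternatives called it in any comparison.

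Ikzf5 encodes Pegasus, lies on chromosome 7 from 131388649 to 131410518 on the minus strand, and fell in both activated groups. Its level in naive replicates was 32.4, 23.4 and 23.0. It was 4.42, 9.05 and 12.4 in Hopx-low replicates and 5.60, 16.3 and 9.53 in Hopx-high replicates. Every activated library was below every naive library, and the activated groups overlapped. Means were 26.3 ± 5.33, 8.64 ± 4.02 and 10.5 ± 5.41. The log2 fold change against naive was -1.58 ± 0.41 in Hopx-low cells (adjusted p = 0.017) and -1.34 ± 0.41 in Hopx-high cells (adjusted p = 0.021).

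The fall of Ikzf5 kept its direction under all 22 alternatives and its call under 16 for the Hopx-low and 18 for the Hopx-high group. Without naive replicate 1, which was the highest, adjusted p was 0.10 in both. It was 0.085 in Hopx-low cells without Hopx-low replicate 1, and 0.11 and 0.065 in Hopx-high cells without Hopx-high replicate 1 or 3. Hopx-high against Hopx-low gave 0.24 ± 0.41, with a 95% interval of -0.62 to 1.09.

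Ikzf5 and Ikzf4 sit close to other genes, and strand use in the counting is not given. Acadsb, an acyl-CoA dehydrogenase gene, begins 82 bases beyond the start of Ikzf5 and runs the other way. The bases between both starts are shown because any promoter that the genes share would hold them. They lie at chr7:131410519-131410600 in GRCm38.p6, are written on the minus strand from RefSeq, and have capitals at the only match to GGAA, the core that ETS factors bind. The label names the pair of genes and not their order. On the minus strand the first base written lies next to Acadsb and the last next to Ikzf5, so the GGAA lies near the start of Acadsb.
Ikzf5 to Acadsb: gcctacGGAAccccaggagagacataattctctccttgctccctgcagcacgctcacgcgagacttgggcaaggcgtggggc
Both strands were searched for GGGAA, the Ikaros core, and for GGAA, which every GGGAA contains. GGGAA had 0 matches here and GGAA had 1. Of 32851 RefSeq promoter windows cut to the same 82 bases, 23.2% hold GGGAA and 59.4% hold GGAA. The G and C content was 62.2%, against a median of 53.7% over those windows.

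Pstk, which encodes a kinase that acts on the transfer RNA for selenocysteine, overlaps Ikzf5 over 4120 bases on the opposite strand, and if strand was not used in the counting, reads of that stretch cannot be told apart. In the order naive, Hopx-low, Hopx-high, the level of Pstk was 8.50 ± 1.42, 3.22 ± 1.94 and 4.71 ± 0.774, and that of Acadsb 8.83 ± 3.02, 5.33 ± 2.41 and 4.68 ± 1.78. Both had lower means in activated cells, and neither passed. The log2 fold changes against naive in Hopx-low cells were -1.25 ± 0.44 for Pstk (adjusted p = 0.085) and -0.65 ± 0.45 for Acadsb (adjusted p = 0.40). In Hopx-high cells they were -0.73 ± 0.44 for Pstk (adjusted p = 0.23) and -0.78 ± 0.45 for Acadsb (adjusted p = 0.21).

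Suox, the sulfite oxidase gene, lies 215 bases beyond the nearer end of Ikzf4. Its level was 75.6 ± 17.6 in naive cells, then 154 ± 19.1 and 157 ± 20.5 in the Hopx-low and Hopx-high groups. It rose in both activated groups, by 1.03 ± 0.21 (adjusted p = 0.0022) and 1.07 ± 0.21 (adjusted p = 0.00073) on the log2 scale. The rise of Suox was smaller than that of Ikzf4, at 3.11 and 3.23. Whether coverage of these neighbours contributes to the values of Ikzf4 or Ikzf5 was not tested. Ikzf1, Ikzf3 and Ikzf4 also overlap noncoding or pseudogene annotations that have no row of their own in the table.

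**Figure D3:**
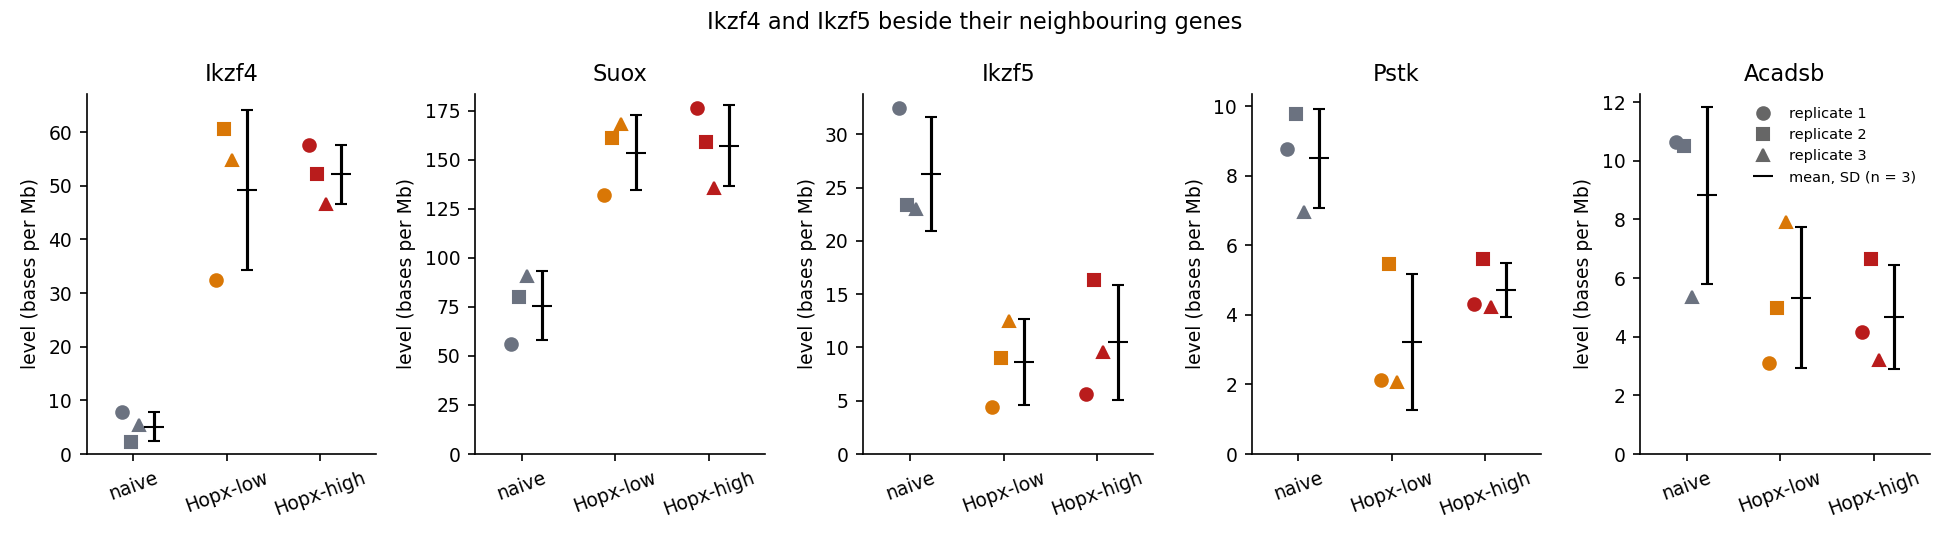
Levels (vertical axes, bases per megabase, from 0) of Ikzf4 and Ikzf5 with the neighbouring genes Suox, Pstk and Acadsb in each of the 9 libraries; symbols are replicates, and bars are the mean and SD of 3 libraries. Suox lies at 56.1 to 90.5 in naive libraries and at 132 to 177 in the others, and Pstk at 6.97 to 9.78 against 2.07 to 5.60.

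Coverage relative to Ikzf1 in the same library removes the library total from the values. Per 1000 bases of Ikzf1, Ikzf2 had 1.18 ± 1.39 bases in naive cells, 135 ± 21.0 in the Hopx-low group and 324 ± 82.8 in the Hopx-high group. Ikzf4 had 8.45 ± 3.53, 90.95 ± 4.75 and 109 ± 19.5 in the same order. The sizes of these ratios also reflect gene length, so only their change between groups is read. On this scale the groups of Ikzf2 did not overlap in any comparison. The share of all tested features without overlap on this scale was not computed, so no background stands beside the overlaps of ratios.

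For Ikzf3 the ratio was 168, 116 and 139 in naive replicates. It was 343, 231 and 256 in Hopx-low replicates and 229, 296 and 235 in Hopx-high replicates, so that all 6 activated libraries lay above the naive ones. This differs from its level, where Hopx-high and naive libraries overlapped. The mean level of Ikzf1, though not called, was 0.93 and 0.84 times the naive one in Hopx-low and Hopx-high cells. A lower Ikzf1 raises every ratio to it, so the ratio adds no separate evidence of a rise. Ikzf5 had 45.7 ± 6.82 bases in naive cells and 15.5 ± 4.34 and 20.9 ± 7.83 in the Hopx-low and Hopx-high groups, without overlap between naive and activated libraries. In Hopx-low replicate 1 the levels of all 5 genes were the lowest of its group, whereas its ratios were the highest of the group for Ikzf2 and Ikzf3 and the lowest for Ikzf4 and Ikzf5.

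**Figure D4:**
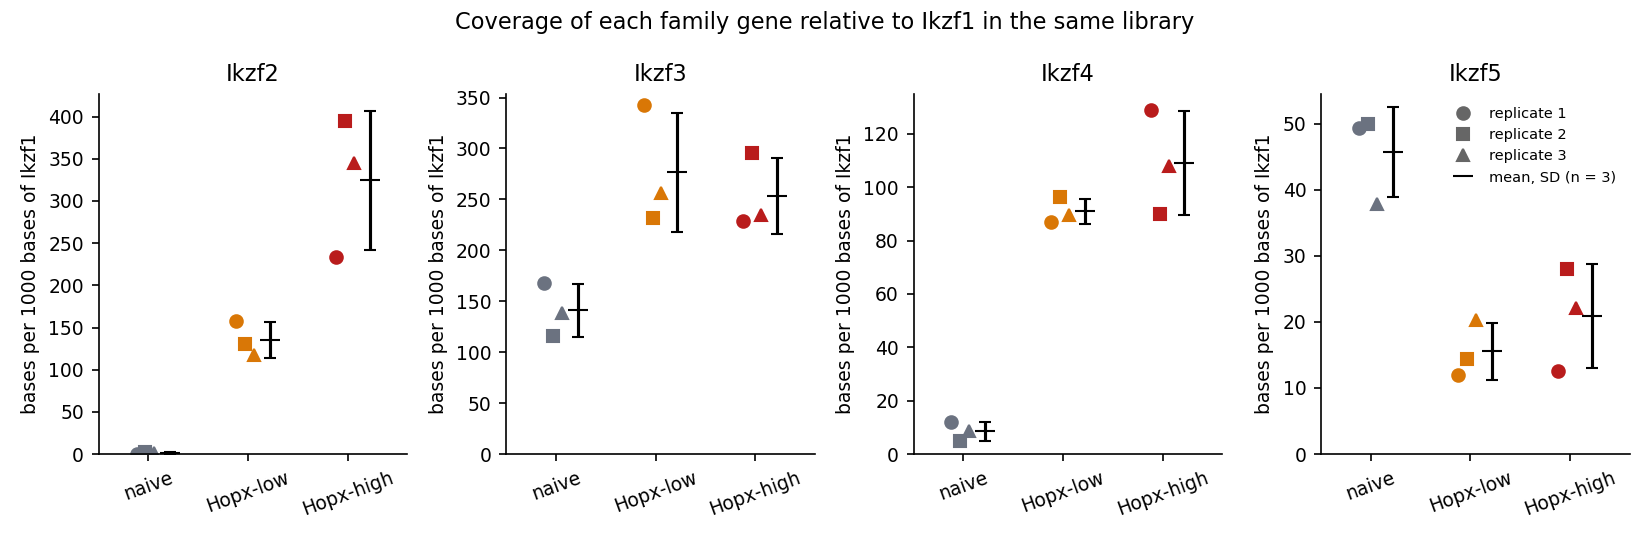
Covered bases of Ikzf2 to Ikzf5 per 1000 covered bases of Ikzf1 in the same library (vertical axes, from 0), by group; symbols are replicates, and bars are the mean and SD of 3 libraries. The ratio of Ikzf2 lies at 0 to 2.71 in naive, 117 to 158 in Hopx-low and 233 to 395 in Hopx-high libraries.

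Markers of regulatory T cells were higher in the groups with high Helios and Eos. The summed level of 8 such markers, with the family genes left out, was 174 to 182 in naive, 797 to 953 in Hopx-low and 966 to 1180 in Hopx-high libraries (1179.7 at most). Folr4, a folate receptor family gene, made up most of the sum, at 101 ± 5.86, 616 ± 82.1 and 807 ± 112. Of the 8 genes, 6 rose in Hopx-low cells and 5 in Hopx-high cells against naive, and 0 fell. Over all tested features 4.75% and 8.41% rose in these comparisons. Ctla4, Foxp3, Lrrc32 and Nrp1 of the list passed the filter on low values only with the help of activated libraries. These counts therefore describe the list and support nothing further. Il2ra, at 6.60 ± 1.46, 20.2 ± 4.70 and 8.45 ± 2.92, rose in Hopx-low cells only. So did Gpr83, at 5.13 ± 1.59, 16.3 ± 3.89 and 10.2 ± 4.64. Lrrc32 rose in Hopx-high cells only, at 1.04 ± 1.24, 3.59 ± 1.96 and 5.04 ± 2.07. Nrp1, a neuropilin gene, was called in neither comparison, at 1.30 ± 1.05, 1.16 ± 1.04 and 3.33 ± 0.533. Between the activated groups limma called 0 of the 8 genes, with 3 at an unadjusted p below 0.05. Libraries of the activated groups overlapped for Lrrc32 and Gpr83. A call in 1 activated group alone therefore does not show that the groups differed. Foxp3, which defines regulatory T cells, stood at 2.11, 0.767 and 1.39 in the naive replicates. It was 4.55, 16.4 and 8.48 in the Hopx-low replicates and 8.88, 18.8 and 8.91 in the Hopx-high ones. In both activated groups replicate 2 was the highest for Foxp3 and for Ikzf2. It was also the highest for 3 of the 5 family genes in Hopx-low cells and for 4 in Hopx-high cells. As deviations from group means of log2 levels, Foxp3 correlated with Ikzf2 at a Pearson's r of 0.27. For Ikzf1, Ikzf3, Ikzf4 and Ikzf5 it was 0.91, 0.72, 0.68 and 0.73. Each r rests on 9 libraries in 3 groups, and the share of other features with such values is not given. Hopx-low replicate 1 was the lowest of its group for Foxp3 and for all 5 family genes. The part of such library differences in these values was not tested. The part of regulatory T cells in the levels of Ikzf2 and Ikzf4 was not tested.

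B cells carry Ikaros and Aiolos, and their 10 markers summed to 13.3 to 50.9 in naive, 9.85 to 20.01 in Hopx-low and 58.5 to 94.4 in Hopx-high libraries. Of 7 tested B cell markers, limma called 0 in Hopx-low cells against naive, 2 as higher in Hopx-high cells against naive and 3 as higher in Hopx-high against Hopx-low cells. At an unadjusted p below 0.05 these counts were 0, 5 and 6. Over all tested features limma called 4.75%, 8.41% and 1.22% as higher in the same comparisons, at the adjusted threshold. No share of all features at an unadjusted p below 0.05 is given, so the unadjusted counts have no background. Ebf1, 1 of the 7, reached a level of 1 only in Hopx-high libraries. The counts therefore describe the list and support nothing further. The 6 monocyte and macrophage markers summed to 9.30 to 33.5, 9.36 to 25.8 and 40.1 to 94.4. CD4 T cell markers, 7 genes including Cd4 and Cd3e, summed to 4254 to 4999 in naive, 3926 to 4710 in Hopx-low and 3707 to 4785 in Hopx-high libraries. Lck was the largest part of the sum, at 2369 ± 378, 2319 ± 94.5 and 2179 ± 365. Of the 7 genes, Icos rose and Cd3g fell in both activated groups against naive. The 5 markers of NK and other innate lymphoid cells, which also carry family members, summed to 0 to 2.43, 0 to 1.59 and 14.05 to 15.3. Most of the last sum was Nkg7, a gene of cytotoxic granules, at 12.3 ± 1.94, and it was the only gene of the list that could be tested. Klrd1 averaged 1.37 in naive cells and was at 0 in Hopx-high cells, and Ncr1, which defines NK cells, was at 0 in all but 1 library. Klrb1c went the other way from Klrd1, with means of 0, 0.154 and 1.66 in naive, Hopx-low and Hopx-high cells. Klre1 was seen in Hopx-high replicate 3 alone, at 1.29. The 2 CD8 T cell markers summed to 126 to 149, 52.6 to 84.0 and 39.3 to 45.2, most of it Cd8b1, which fell in both activated groups (-0.98 ± 0.23, adjusted p = 0.0084, and -1.69 ± 0.23, adjusted p = 1.1e-05). Cd8a, the other marker, stood at 5.90 ± 1.42, 5.11 ± 1.82 and 2.05 ± 1.11 and was called in neither group against naive. Its Hopx-low and naive libraries overlapped, whereas its Hopx-high libraries lay below the naive ones. The part of B, myeloid, innate lymphoid and CD8 T cells in the family's levels was not tested.

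The genes whose levels were most like those of each family gene over the 9 libraries were found by Pearson's r of log2 levels, among tested features at or above the median level. For Ikzf2 they were Ppp2r5d, a phosphatase subunit gene (r = 0.996), Colq, a collagen tail gene (0.995), and Ptprs, a receptor phosphatase gene (0.994). For Ikzf4 they were Irf4, a transcription factor gene induced by T cell receptor signals (0.985), Adam19 (0.984) and Gfod1 (0.979). Mean levels in naive, Hopx-low and Hopx-high cells were 9.17, 186 and 172 for Irf4 and 5.10, 118 and 161 for Colq. For Ikzf3 they were Sesn3 (0.986), Foxn3 (0.977) and Frmd6 (0.935), and for Ikzf5 Dnajc3 (0.989), Arap2 (0.977) and Rapgef6 (0.976). For Ikzf1 they were Hsd17b12 (0.983), 5830417I10Rik (0.980) and Cramp1l (0.973). The points share their libraries and fall into 3 groups. In all, 219 features reached r of at least 0.9 with Ikzf2, 166 with Ikzf4, 161 with Ikzf5, 98 with Ikzf1 and 13 with Ikzf3.

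Of 14 tested NuRD genes, which encode the family's main chromatin partner, 1 rose in Hopx-low cells against naive, Cdk2ap1, a small subunit gene (0.86 ± 0.26, adjusted p = 0.041). In Hopx-high cells 1 fell, Chd3, which encodes a remodelling ATPase (-0.59 ± 0.19, adjusted p = 0.027). At an unadjusted p below 0.05 there were 4 of the 14 in each of these comparisons. At the adjusted threshold, over all tested features 8.39% were called in the former and 23.6% in the latter, which is also the background of the next 2 lists. No such share at an unadjusted p is given, so the unadjusted counts have no background. The calls of Cdk2ap1 and Chd3 were lost under 8 and 9 of 22 alternatives. Adjusted p was 0.16, 0.12, 0.14 and 0.10 for Cdk2ap1 without naive replicate 1 or 2 or Hopx-low replicate 2 or 3. It was 0.17, 0.063, 0.094 and 0.11 for Chd3 without naive replicate 1 or 2 or Hopx-high replicate 1 or 3. Chd4, the other main ATPase gene of the complex, stood at 449 ± 114, 475 ± 76.7 and 438 ± 119. Of 10 other corepressor and remodeller genes, 1 rose in Hopx-high cells, Ezh2, a histone methyltransferase gene (from 11.8 ± 3.11 in naive cells to 38.3 ± 12.8, a log2 fold change of 1.61 ± 0.34, adjusted p = 0.0013). In Hopx-low cells 0 of the 10 were called by limma, with 1 at an unadjusted p below 0.05.

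Of 14 tested genes for Ikaros kinases, phosphatases and the cereblon ligase, which marks human Ikaros and Aiolos for breakdown when bound by thalidomide-like drugs, 1 fell in Hopx-low cells. This was Crbn, which encodes cereblon, from 28.4 ± 10.4 in naive cells to 9.11 ± 1.57 (-1.50 ± 0.36, adjusted p = 0.0089). It stood at 19.9 ± 8.21 in Hopx-high cells, where it did not pass (adjusted p = 0.30). Without naive replicate 2 the fall in Hopx-low cells was not called (adjusted p = 0.076). In Hopx-high against naive cells Csnk2b, a casein kinase II subunit gene, rose (0.78 ± 0.23, adjusted p = 0.015). Pias1, a SUMO ligase gene (-1.01 ± 0.26, adjusted p = 0.0081), and Ppp1cb, a protein phosphatase 1 gene (-0.95 ± 0.31, adjusted p = 0.029), fell. The call of Csnk2b was lost without naive replicate 1 (adjusted p = 0.08), and that of Ppp1cb without naive replicate 1 (0.17) or Hopx-high replicate 1 (0.10) or 3 (0.14).

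Genes reported as targets of the family in lymphocytes went both ways. Of 16 tested, 5 rose and 4 fell in Hopx-low cells, and 3 rose and 6 fell in Hopx-high cells, both against naive. Over all tested features 4.75% rose and 3.64% fell in the former comparison and 8.41% and 15.1% in the latter. Foxp3 and Tbx21, which rose in both, passed the filter on low values only with the help of activated libraries. Counts that include them describe the list and support nothing further. Bcl6, which directs follicular helper T cells, stood at 17.8 ± 1.21, 75.0 ± 25.7 and 102 ± 20.9. Il7r, the interleukin 7 receptor gene, fell in Hopx-low cells from 76.2 ± 34.0 to 12.4 ± 6.85 (adjusted p = 0.0056, and 0.075 without Hopx-high replicate 2), and Dntt, which encodes terminal transferase, from 22.4 ± 5.90 to 3.92 ± 3.32 (adjusted p = 0.003, but 0.25 on the deposited scale and 0.071 with a pseudocount of 0.1). Satb1, a chromatin organizer gene, stepped down over the groups at 811 ± 44.0, 531 ± 103 and 299 ± 55.7. Myc, which drives growth, stood at 168 ± 35.6, 376 ± 42.4 and 192 ± 48.8.

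Between Hopx-high and Hopx-low cells Myc (-0.99 ± 0.20, adjusted p = 0.0087) and Satb1 (-0.82 ± 0.18, adjusted p = 0.013) fell. Those calls were lost under 5 and 6 of 22 alternatives. Without Hopx-low replicate 2 or Hopx-high replicate 3 the adjusted p of Myc was 0.052 and 0.09. That of Satb1 was 0.082 and 0.10, and it was 0.11 without Hopx-low replicate 3 and 0.064 without Hopx-high replicate 1. Prdm1, which encodes Blimp-1, fell from 10.8 ± 3.35 in naive cells to 0.732 ± 0.444 in the Hopx-high group. Il2, the cytokine gene that Ikaros and Aiolos repress, was too low to test, with group means of 0.0858, 0.108 and 0.152. The list went no single way, with a median log2 fold change of -0.01 in the Hopx-low and -0.43 in the Hopx-high group against naive, beside -0.16 and -0.29 over all tested features.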

How the data were processed

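Total RNA was measured in 9 libraries, and the 9 small RNA libraries, whose table holds none of these genes, were not used. Per the labels' protocols, barcoded libraries for Ion Torrent sequencing followed depletion of ribosomal RNA. The submitters' processing notes name mm10 and bedtools. Which aligner, annotation and strand setting were used is not given in the sources used here. The deposited values are a coverage signal. From the values, each equals covered bases plus 1, scaled to a common total: divided by the smallest of its column, 100% came out whole within a relative tolerance of 1e-06. They were turned back into bases and given per megabase covered in the library. They are not counts of reads, so no count test was used. After log2(level + 1), every feature that reached a level of 1 in 3 or more libraries was tested with limma 3.58.1 in R 4.3.3 (lmFit, eBayes with trend and robust settings, all 9 libraries, Benjamini-Hochberg, threshold 0.05), after a test on simulated data. Tables and figures used Python 3.11.15, pandas 2.3.3, numpy 2.4.6 and matplotlib 3.10.9.

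Positions and sequence are from RefSeq (GRCm38.p6, which is mm10). The members, lists and tests were chosen with earlier results of these data known. Named genes were the 5 members, up to 4 called genes of each related list with the smallest adjusted p in a comparison, the 3 features most like each member, and neighbouring genes. Chd4, Foxp3, Il2 and Tbx21 were added after their values were seen. So were the markers Folr4, Nrp1, Il2ra, Gpr83, Lrrc32, Ctla4, Ebf1, Lck, Icos, Cd3g, Nkg7, Klrd1, Ncr1, Klrb1c, Klre1, Cd8b1 and Cd8a. Alternatives were the deposited scale, upper-quartile scaling, quantile normalization, totals without Lars2, no trend or robust setting, pseudocounts of 0.1 and 5, no filter (features with any coverage), a filter of 5, a block for the replicate number, a fit to only the 6 libraries compared, both Lars2-rich libraries left out, only replicates 1 and 2, and each library left out in turn.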

Additional observations from a re-analysis of the deposited data

How the results depend on the processing

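Ikzf2 and Ikzf4 were called against naive cells in all 22 alternatives. For Hopx-low against naive the number of family genes called fell from 4 to 2 with no trend and robust setting, with no filter on low values, with both libraries richest in Lars2 left out and with only replicates 1 and 2. Leaving out 1 library gave 2 to 4, with 2 without Hopx-low replicate 1. For Hopx-high against naive it was 2 to 4 against 3, and 2 to 3 when 1 library was left out. For Hopx-high against Hopx-low it was 1 in place of 0 with upper-quartile scaling, quantile normalization, a pseudocount of 5 and only the 6 libraries compared, each time Ikzf2. The cause was not tested. Over all features the calls ranged from 456 to 1277 against 950, from 1106 to 3145 against 2666 and from 69 to 316 against 242 in the same order.

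Sign changes were seen only in family genes that were not called. Ikzf1 in Hopx-low against naive was 0.12 with both libraries richest in Lars2 left out and -0.27 to 0.12 with 1 library left out. In Hopx-high against Hopx-low Ikzf1 was 0.022 with upper-quartile scaling, 0.074 with only replicates 1 and 2 and -0.36 to 0.014 with 1 library left out. There Ikzf4 was -0.070 and Ikzf5 -0.12 with both libraries richest in Lars2 left out, and -0.15 to 0.30 and -0.13 to 0.58 with 1 library left out. The median of all tested features in Hopx-high against naive moved from -0.29 to -0.09 with upper-quartile scaling.

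Replicate numbers matched more between the activated groups than with naive cells. As deviations from group means, same-numbered libraries correlated over 0.1 in 3 of 9 pairs (-0.13 to 0.19), and 10 of 18 correlated best with their own number. Between Hopx-low and Hopx-high the same-numbered values were 0.19, 0.14 and 0.061. There every library correlated best with its own number. The labels state no block, and the main test used none. With the replicate block 3, 3 and 0 family genes were called, Ikzf3 being lost at adjusted p = 0.052, and 970, 2677 and 255 features. Ikzf5, Pstk and Acadsb rest on few covered bases in the shallow libraries. They had 464, 223 and 327 in Hopx-low replicate 1 and 1045, 464 and 353 in Hopx-high replicate 3. Suox had 13827 and 14881. Ikzf2 rests on few covered bases in naive cells, whose libraries were not the shallow ones.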
